A study of Mus musculus with 12 samples.

Results

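Glipr2, Prss23, Sprr1a and Ccdc85b are 4 of the 24078 entries in a table of islet transcript levels, and they were selected because their levels were higher in Wfs1KO than in WT mice. The selection used the values of the same animals, so the difference between Wfs1KO and WT islets is given here for these genes as a description and without a test. Pancreatic islets of 12 male mice were sequenced, 4 for each genotype. All animals were F2 hybrids of 129S6/SvEvTac and C57BL/6 mice aged 5 to 6 months. WT animals carried no mutant allele, Wfs1HZ animals were heterozygous and Wfs1KO animals homozygous for Wfs1tm1Koks, in which a LacZ cassette replaces most of exon 8, so that a truncated fusion protein is still made. The mutation is present in every tissue and not only in islet cells, and islets were picked by hand after collagenase digestion. The study describes overnight culture before its insulin secretion assay and does not state whether the sequenced islets were cultured. Levels are RPKM, that is, reads scaled to transcript length and to the number of mapped reads. Differences are between group means of log2(RPKM + 0.1), which understates differences of low values, and SE is the standard error from limma, a linear model fitted across all transcripts.

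Wfs1 codes for wolframin, a membrane glycoprotein of the endoplasmic reticulum that is abundant in beta cells, and its loss causes Wolfram syndrome with insulin-dependent diabetes. The 4 genes do not form a known pathway. Glipr2, also called GAPR-1, is a small myristoylated protein of the CAP superfamily on the cytosolic face of the Golgi that binds Beclin 1, a core protein of autophagy. Prss23 is a secreted protease of the trypsin fold. Sprr1a is a small proline-rich protein of the cornified envelope of squamous epithelium and is also induced in injured nerve and stressed heart. Ccdc85b is a coiled-coil protein that binds delta-catenins and represses transcription by beta-catenin and TCF factors.

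Depth, estimated from the steps between low values of short RNA genes, was 2171000 to 9578000 reads in the denominator of the RPKM values, which is not the number of reads sequenced per library and is lower than the totals that the study states. The groups overlapped in depth (2913000 to 8933000 for WT, 2171000 to 7334000 for Wfs1HZ and 3281000 to 9578000 for Wfs1KO). Wfs1 was 24.85 to 33.94 RPKM in WT, 4.69 to 16.43 RPKM in Wfs1HZ and 2.45 to 6.61 RPKM in Wfs1KO islets, with group means in the order of the genotype labels and an overlap between Wfs1HZ and Wfs1KO. Beta and alpha cell markers were high in every library, and the beta cell gene Mafa was at 0 in at least 1 library. In cell type markers, 2 libraries stood apart: replicate 4 of Wfs1KO had the highest summed alpha cell markers (217179 RPKM) and replicate 2 of Wfs1HZ the highest summed fibroblast and stellate markers (425 RPKM). Values without them are given for some, not all, of the results in which they stood at either end. In bulk islets, fewer cells of a type and less RNA per cell cannot be told apart.

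Glipr2 lies on chr4:43957401-43979118 on the plus strand (mm10, GENCODE M21), and its longest transcript has 5 exons and 2320 nt. In WT islets it was 2.13, 0.60, 2.36 and 2.46 RPKM in replicates 1 to 4. The Wfs1HZ animals gave 6.40, 8.29, 3.28 and 3.53 RPKM. In Wfs1KO islets the values were 15.44, 12.40, 20.99 and 5.38 RPKM. Every Wfs1HZ and every Wfs1KO animal was above every WT animal, whereas the lowest Wfs1KO animal, replicate 4, fell within the range of the heterozygotes. The means were 1.89 ± 0.869 RPKM for WT, 5.38 ± 2.40 RPKM for Wfs1HZ and 13.6 ± 6.51 RPKM for Wfs1KO (SD, n = 4 each), a mean 7.18 times as high in Wfs1KO as in WT. The log2 difference between Wfs1KO and WT was 2.79 (SE 0.53), that between Wfs1HZ and WT was 1.52 (SE 0.52), and that between Wfs1KO and Wfs1HZ was 1.27 (SE 0.46). The heterozygotes stood 54.6% of the way from WT to Wfs1KO on the log2 scale, between groups that were used in the selection. Glipr2 was the thinnest of these measurements, with about 12.4 reads in the WT animal at 0.60 RPKM and up to 390.7 reads in others. The study also measured Glipr2 by RT-PCR, in which the rise in Wfs1KO islets was a trend and did not reach significance.

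Prss23 lies on chr7:89507783-89527187 on the minus strand, with 2 exons and 3228 nt in its longest transcript. The WT animals gave 4.59, 3.67, 5.27 and 5.57 RPKM. Among the heterozygotes the values were 12.64, 8.12, 8.56 and 4.90 RPKM. Among the Wfs1KO animals they were 16.18, 16.44, 17.76 and 6.81 RPKM. All Wfs1KO animals were above all WT animals, and the first 3 of them were close together while replicate 4 was near the WT range. Means (± SD, n = 4 a group) were 4.78 ± 0.843 RPKM in WT, 8.56 ± 3.18 RPKM in Wfs1HZ and 14.3 ± 5.04 RPKM in Wfs1KO. The log2 difference was 1.49 (SE 0.32) between Wfs1KO and WT, 0.77 (SE 0.32) between Wfs1HZ and WT and 0.72 (SE 0.38) between Wfs1KO and Wfs1HZ. As with Glipr2, the heterozygotes were in the middle, at 51.7% of the way from WT to Wfs1KO. An antisense gene, Prss23os, overlaps Prss23, and the cDNA kit does not mark strand, so reads of the pair cannot be told apart.

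Sprr1a lies on chr3:92483952-92485895 on the minus strand, with 2 exons and 806 nt, among other small proline-rich genes. Per length it had the highest level of the 4 genes in every animal but replicate 2 of Wfs1HZ. Its values in WT were 39.12, 34.70, 36.65 and 65.82 RPKM. The Wfs1HZ animals had 63.79, 14.89, 58.61 and 44.31 RPKM. The Wfs1KO animals had 311.32, 376.69, 225.65 and 41.61 RPKM. Replicates 1 to 3 of Wfs1KO were at least 3.43 times as high as the highest WT animal, but replicate 4 was inside the WT and Wfs1HZ ranges. Group means (± SD, n = 4) were 44.1 ± 14.6 RPKM in WT, 45.4 ± 21.9 RPKM in Wfs1HZ and 238.8 ± 145.3 RPKM in Wfs1KO. The log2 difference was 2.10 (SE 0.63) between Wfs1KO and WT and 2.20 (SE 0.69) between Wfs1KO and Wfs1HZ. The latter was 2.91 without replicate 4 of Wfs1KO and 1.73 without replicate 2 of Wfs1HZ. Heterozygotes differed from WT by -0.10 (SE 0.44) and lay at the WT level, at -4.83% of the way to Wfs1KO. In its order of levels Sprr1a differed from the other genes, whose heterozygotes had means between those of WT and Wfs1KO. This difference between genes was not tested. The WT and Wfs1KO values were used in the selection, so a place between them does not measure an effect of gene dose.

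Ccdc85b lies on chr19:5453180-5457894 on the minus strand and has a single exon of 4715 nt. Its WT values were 3.57, 4.60, 6.26 and 3.27 RPKM. Its Wfs1HZ values were 6.41, 15.28, 6.18 and 3.50 RPKM. Its Wfs1KO values were 11.60, 15.01, 13.32 and 5.74 RPKM. Replicates 1 to 3 of Wfs1KO were above all WT animals, replicate 4 was not, and the highest value of all was that of replicate 2 of Wfs1HZ. Averages (± SD, n = 4) were 4.42 ± 1.35 RPKM in WT, 7.84 ± 5.13 RPKM in Wfs1HZ and 11.4 ± 4.03 RPKM in Wfs1KO. The log2 difference was 1.31 (SE 0.34) between Wfs1KO and WT and 0.65 in each of the comparisons with Wfs1HZ (SE 0.46 against Wfs1KO, SE 0.43 against WT). Without replicate 2 of Wfs1HZ the difference between Wfs1HZ and WT was 0.27 and that between Wfs1KO and Wfs1HZ 1.04, and without replicate 4 of Wfs1HZ the latter was 0.34.

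**Figure D1:**
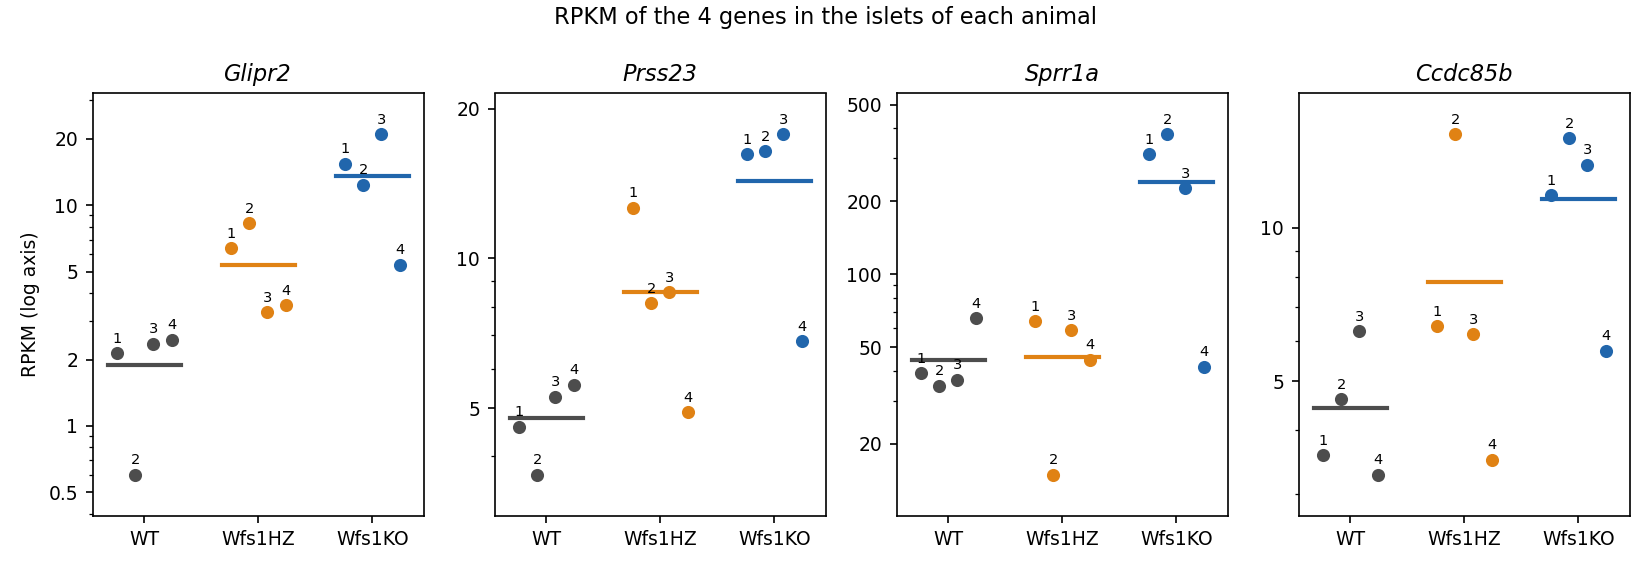
RPKM on a log axis for Glipr2, Prss23, Sprr1a and Ccdc85b in the islets of each animal, with the replicate number beside each point and a bar at the group mean (n = 4 for each genotype). Replicate 4 of Wfs1KO is the lowest Wfs1KO animal in all 4 panels, from 5.38 RPKM for Glipr2 to 41.61 RPKM for Sprr1a.

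The promoters of the 4 genes were searched for AP-1 sites, cyclic AMP response elements, a site of the unfolded protein response and the CCAAT box, because an endoplasmic reticulum protein is mutated here. Each promoter held 250 bases before and 50 after a RefSeq transcription start (GRCm38.p6, 32851 windows, 1 for each gene but 7 for Prss23). The AP-1 letters TGANTCA, which match themselves on both strands, were in 7.81% of all windows, and 0.46% held them more than once. Sprr1a held 2 matches, 146 and 116 bases before its start, and 2 overlapping windows of Prss23 held 1 and the same match, 146 bases before the start at position 89518204. The stretches around them are shown on the minus strand, 5′ to 3′, with the AP-1 letters in capitals, because they are the matches found.
Sprr1a, chr3:92485976-92486041: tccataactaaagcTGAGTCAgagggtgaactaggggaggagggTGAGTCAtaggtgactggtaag
Prss23, chr7:89518299-89518364: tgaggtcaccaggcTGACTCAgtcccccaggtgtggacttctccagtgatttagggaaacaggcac
Glipr2 and Ccdc85b held no AP-1 letters in these windows. The cyclic AMP response element TGACGTCA (1.79% of all windows) and the element TGACGTGG of the unfolded protein response (0.676%) were in none of the windows of the 4 genes. CCAAT, read on both strands, was in 37.4% of all windows, among them those of Sprr1a (26 bases before the start) and Ccdc85b (49 bases before the start, on the opposite strand). A match is a description of the letters and not of binding.

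In the comparison of Wfs1KO with WT, all 4 Wfs1KO animals were above all 4 WT animals for 2 of the 4 genes, Glipr2 and Prss23, and for 1.75% of the 21701 transcripts tested. The selection used this contrast, and nothing is read from that count. Over the same transcripts 3 (0.0138%) passed an FDR of 0.05 and 1225 (5.64%) an unadjusted p of 0.05 by limma. In the comparison of Wfs1HZ with WT, all heterozygotes were above all WT animals for Glipr2 alone, against 0.576% of all transcripts. In the comparison of Wfs1KO with Wfs1HZ this held for none of the 4 genes, against 0.926% of all transcripts. By limma, no transcript passed an FDR of 0.05 in either comparison with Wfs1HZ (0%), and the unadjusted p was under 0.05 for 511 transcripts (2.35%) between Wfs1HZ and WT and for 532 (2.45%) between Wfs1KO and Wfs1HZ. The adjusted p of each of the 4 genes was 1 in both comparisons, which share WT or Wfs1KO animals with the selection and are not independent of it. The outcome depends on the method. By edgeR, a test on read counts, the study listed Sprr1a at an FDR under 0.05 between Wfs1KO and Wfs1HZ. It listed all 4 genes between Wfs1KO and WT, the contrast of the selection.

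Replicate 4 of Wfs1KO was the lowest Wfs1KO animal for all 4 genes. It was the lowest Wfs1KO animal for 17.2% of all transcripts tested, and for 16.8% of the 1564 transcripts with a log2 difference of at least 1 between Wfs1KO and WT. The mean of the other 3 Wfs1KO animals was 3.03 times its value for Glipr2, 2.47 times for Prss23, 7.32 times for Sprr1a and 2.32 times for Ccdc85b. Without this animal the log2 difference from WT was 3.18 for Glipr2, 1.81 for Prss23, 2.81 for Sprr1a and 1.60 for Ccdc85b. With any single animal left out, the difference between Wfs1KO and WT ranged from 2.34 to 3.18 for Glipr2, from 1.35 to 1.81 for Prss23, from 1.75 to 2.81 for Sprr1a and from 1.15 to 1.60 for Ccdc85b. The direction of these differences was fixed by the selection. For Sprr1a the difference between Wfs1HZ and WT lay between -0.33 (without replicate 1 of Wfs1HZ) and 0.37 (without replicate 2 of Wfs1HZ), on both sides of 0.

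**Figure D2:**
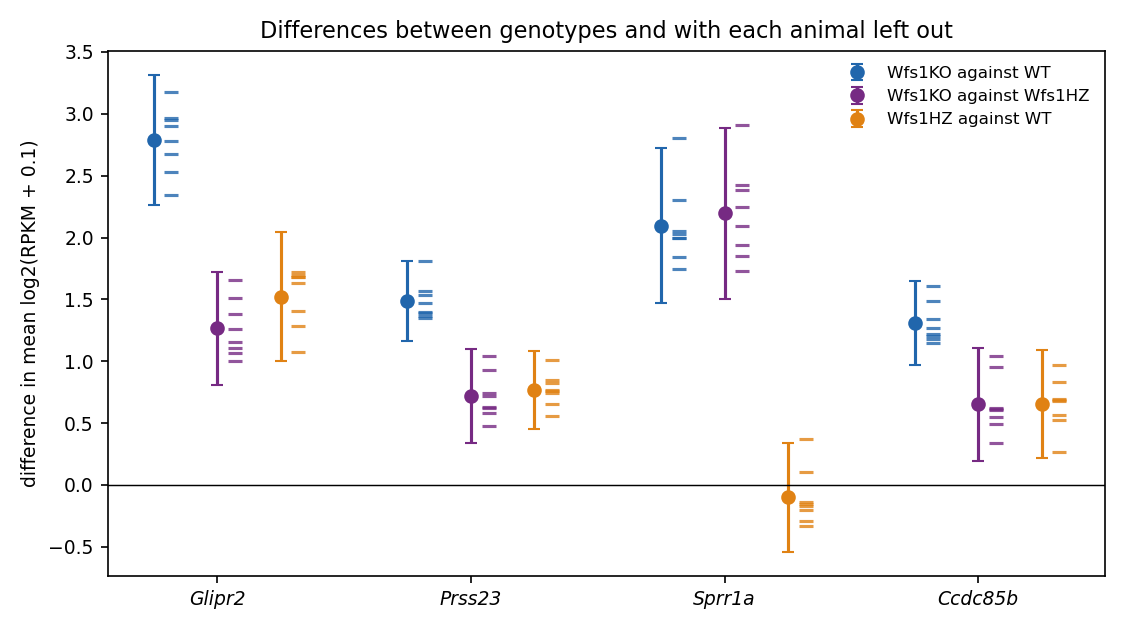
Difference in mean log2(RPKM + 0.1) between genotypes for each of the 4 genes. Points are the differences over 4 animals a group with the SE from limma, and the dashes beside them are values from 1 animal fewer. The Wfs1KO minus WT differences are 1.31 to 2.79, and the Wfs1HZ minus WT difference of Sprr1a is at -0.10.

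Replicate 4 of Wfs1KO also stood at 1 end of its group in the summed markers of all 10 cell types, lowest in 4 lists and highest in 6. Its summed acinar markers were 7891 RPKM against 62892 to 260376 RPKM in the other Wfs1KO animals, its summed ductal markers 252.9 RPKM against 975.9 to 1971 RPKM, and its summed leukocyte and macrophage markers 42.2 RPKM against 100.4 to 144.5 RPKM; beta cell markers were the other list in which it was lowest. It was highest in alpha, delta, PP, endothelial, Schwann and fibroblast and stellate markers, the last at 153.2 RPKM against 62.1 to 82.6 RPKM. The acinar markers were low together: each was lower in replicate 4 than the Wfs1KO mean, such as Cpa1 at 390.8 against 3923 RPKM. The low ductal and leukocyte and macrophage sums rested mostly on few genes. Spp1, which codes for osteopontin, made up 83.5% of the ductal sum over all libraries, and the 7 other ductal markers summed to 129.4 RPKM in replicate 4 against 143.9 to 244.2 RPKM. Cd14 and Cd68 made up 91.7% of the leukocyte and macrophage sum, and the 6 other genes summed to 8.37 RPKM in replicate 4, within the 6.77 to 9.34 RPKM of the other Wfs1KO animals. Across the 10 lists, Mafa (beta cell) and Sox10 (Schwann) were at 0 in some library, and the other markers measured were above 0 in every library. Between genotypes the sums overlapped. Ductal markers were 720.2 to 1437 RPKM in WT, 506.9 to 1465 RPKM in Wfs1HZ and 252.9 to 1971 RPKM in Wfs1KO islets. Of these, 5 of 8 genes had a higher mean log2 value in Wfs1KO than in WT, and the counts that follow use the same measure. Leukocyte and macrophage markers were 68.8 to 203.9 RPKM in WT, 71.5 to 135.1 RPKM in Wfs1HZ and 42.2 to 144.5 RPKM in Wfs1KO islets, with 5 of 8 genes higher. Acinar markers were 49986 to 110585 RPKM in WT, 8290 to 289448 RPKM in Wfs1HZ and 7891 to 260376 RPKM in Wfs1KO islets, with 2 of 11 genes higher. By mean RPKM all acinar genes but Ptf1a were instead higher in Wfs1KO, such as Ctrb1 at 83216 against 68107 RPKM in WT. Endothelial markers were 27.8 to 85.0 RPKM in WT, 30.1 to 140.3 RPKM in Wfs1HZ and 77.3 to 97.4 RPKM in Wfs1KO islets, with 7 of 7 genes higher, and fibroblast and stellate markers were 21.4 to 62.4 RPKM, 14.1 to 425 RPKM and 62.1 to 153.2 RPKM, with 7 of 8 genes higher. Beta cell markers were 32005.5 to 179825 RPKM in WT and 22318.5 to 91397.9 RPKM in Wfs1KO islets, with 2 of 8 genes higher. Alpha cell markers were 59449 to 182257 RPKM in WT and 50081 to 217179 RPKM in Wfs1KO islets, with 0 of 3 genes higher. In Wfs1HZ islets these sums were 12510 to 137700 RPKM and 57532 to 155299 RPKM. Higher genes numbered 1 of 2 for delta, 1 of 1 for PP and 3 of 4 for Schwann markers. The part of the cell types in the levels of the 4 genes was not tested.

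Within genotypes, Sprr1a gave a Pearson's r of 0.87 with the summed ductal markers (exact permutation p = 0.00412, Spearman's rho = 0.89, p = 0.0021, n = 12), with r = 0.62 after replicates 2 and 4 of Wfs1KO, the farthest in these markers, were left out. It gave r = 0.84 with the summed leukocyte and macrophage markers (exact permutation p = 0.00593, rho = 0.78, p = 0.00651, n = 12; r = 0.74 without replicate 2 of WT and replicate 4 of Wfs1KO). Prss23 gave r = 0.79 with the ductal markers (exact permutation p = 0.0218, rho = 0.83, p = 0.00911, n = 12; r = 0.53 without replicates 2 and 4 of Wfs1KO). None of the 40 correlations of the 4 genes with the 10 marker lists passed the Benjamini-Hochberg adjustment. The adjusted p was 0.1003 for both of these Sprr1a relations and 0.161 for Prss23 with the ductal markers. Other relations were of like size. Sprr1a gave r = 0.71 with the beta cell markers (exact permutation p = 0.00752, adjusted p = 0.1003). Its r was 0.77 with the acinar markers (exact permutation p = 0.054, adjusted p = 0.218). With the alpha cell markers it was -0.76 (exact permutation p = 0.0313, adjusted p = 0.161). Prss23 gave r = 0.71 with the leukocyte and macrophage markers (exact permutation p = 0.0281, adjusted p = 0.161). With Spp1 left out of the ductal sum, a choice made after the data were seen, r was 0.34 for Sprr1a (exact permutation p = 0.489, rho = 0.21, p = 0.633, n = 12) and 0.62 for Prss23 (exact permutation p = 0.114, rho = 0.57, p = 0.114, n = 12). With Cd14 and Cd68 left out of the leukocyte and macrophage sum, r was -0.43 for Sprr1a (exact permutation p = 0.189, rho = -0.30, p = 0.334, n = 12) and 0.25 for Prss23 (exact permutation p = 0.585, rho = 0.15, p = 0.697, n = 12). The adjusted p over these 4 relations was at least 0.377. Without the 2 animals farthest in the reduced ductal sum r was 0.01 for Sprr1a and 0.48 for Prss23, and without those farthest in the reduced leukocyte sum it was -0.31 and -0.17.

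**Figure D3:**
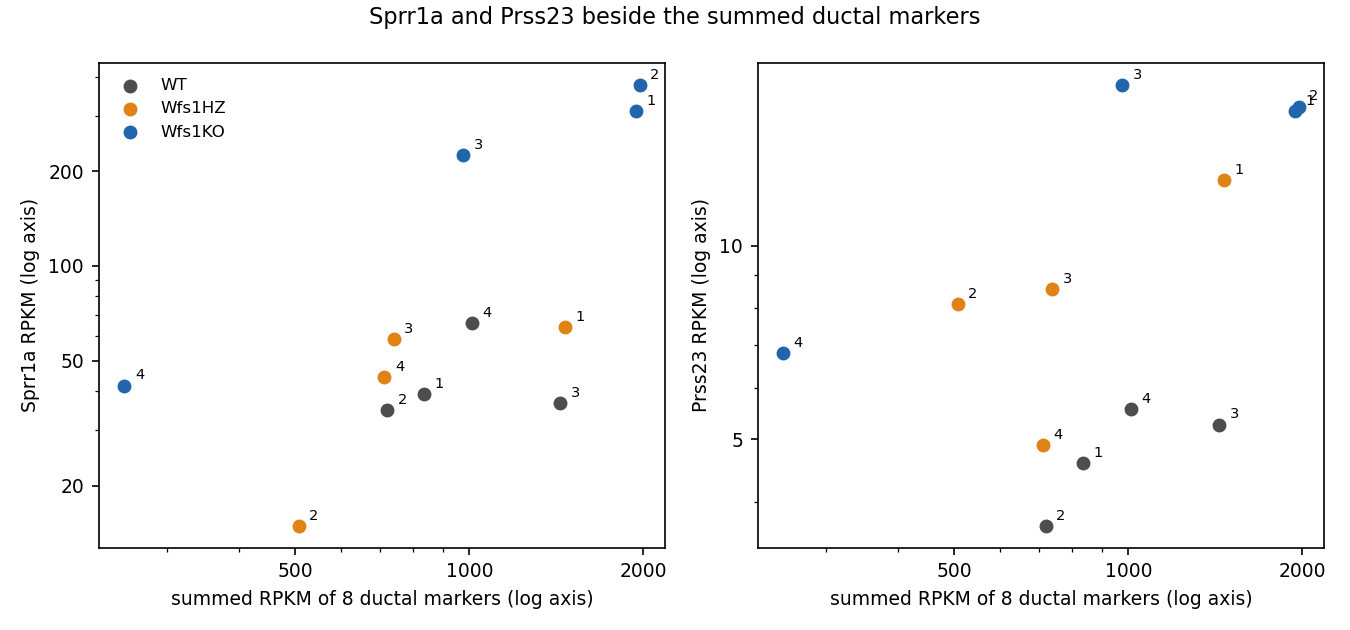
RPKM of Sprr1a (left) and Prss23 (right) against the summed RPKM of 8 ductal markers, both on log axes, one point per animal with its replicate number. Replicate 4 of Wfs1KO has the lowest sum of all animals (252.9 RPKM), and replicates 1 to 3 of Wfs1KO lie above the WT animals.

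The levels of the 4 genes were also compared with each other within genotypes, as correlations of log2 values after subtraction of the genotype means (n = 12 animals, 6 pairs, exact permutation tests within genotypes, two-sided). Glipr2 and Prss23 gave the highest value (r = 0.74, exact p = 0.0163, adjusted p = 0.0977; rho = 0.61, p = 0.0574, adjusted p = 0.172). Prss23 and Sprr1a gave r = 0.68 (exact p = 0.0653, adjusted p = 0.186; rho = 0.76, p = 0.0203, adjusted p = 0.122). The r was 0.57 for Prss23 and Ccdc85b, 0.53 for Glipr2 and Ccdc85b, 0.32 for Glipr2 and Sprr1a and 0.05 for Sprr1a and Ccdc85b, with adjusted exact p of 0.190, 0.186, 0.432 and 0.852 and rho of 0.48, 0.49, 0.17 and 0.06. No pair passed the adjustment. Replicate 4 of Wfs1KO carried much of these values: without it r was 0.58 for Glipr2 and Prss23, 0.27 for Prss23 and Sprr1a, -0.23 for Glipr2 and Sprr1a and -0.70 for Sprr1a and Ccdc85b. With the pair of animals farthest in the first gene left out, r was 0.49 for Glipr2 and Prss23, 0.54 for Prss23 and Sprr1a, -0.36 for Prss23 and Ccdc85b, 0.63 for Glipr2 and Ccdc85b, -0.61 for Glipr2 and Sprr1a and -0.05 for Sprr1a and Ccdc85b. In each case 1 of the 2 animals was replicate 4 of Wfs1KO.

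Among 13357 transcripts averaging 1 RPKM or more over all animals, those most like each gene within genotypes were named by Pearson's r over the 12 animals, as a description; all points share the 12 libraries. Prss23 was closest to Parp9 (r = 0.97), an interferon-inducible ADP-ribosyltransferase, to Icam1 (r = 0.97), an adhesion molecule for leukocytes, and to Fosl2 (r = 0.96), a subunit of the transcription factor AP-1. Icam1 was 92.56, 105.85, 84.88 and 19.01 RPKM in the Wfs1KO animals, with replicate 4 again the lowest. Sprr1a was closest to Ifitm2, Cd74 and Il1rn (r = 0.97 each), an interferon-induced membrane protein, the invariant chain of MHC class II and the antagonist of the interleukin-1 receptor. Il1rn was 54.90, 58.61, 54.23 and 9.08 RPKM in the Wfs1KO animals, and its WT mean was 30.5 ± 8.08 RPKM (SD, n = 4). The nearest transcripts of Glipr2 were Dnase1l3 (r = 0.90), a secreted nuclease, and Soat2 (r = 0.89), which esterifies cholesterol, both below 4 RPKM in every animal, and a septin entry whose name a spreadsheet had turned into a date (r = 0.88). Ccdc85b was closest to Olfr638 (r = 0.95), Ms4a6d (r = 0.95) and Muc6 (r = 0.94), each highest in replicate 2 of Wfs1HZ, at 5.95 to 7.54 RPKM. Without replicate 4 of Wfs1KO and replicate 2 of Wfs1HZ together (n = 10), r was 0.94 for Parp9, 0.95 for Icam1, 0.93 for Fosl2, 0.78 for Ifitm2, 0.81 for Cd74, 0.76 for Il1rn, 0.85 for Dnase1l3, 0.87 for Soat2, 0.79 for the septin entry, 0.81 for Olfr638, 0.88 for Ms4a6d and 0.82 for Muc6. Among the same transcripts Prss23 ranked 63 in likeness to Glipr2, Ccdc85b ranked 563 and Sprr1a ranked 1958. The other way round, Glipr2 ranked 368 in likeness to Prss23. In likeness to Ccdc85b, Prss23 ranked 2506, Glipr2 ranked 3089 and Sprr1a ranked 9794.

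Ccdc85b overlaps Fosl1, a gene on the opposite strand (chr19:5447547-5455946) that codes for a subunit of AP-1. The exons of the genes share 1163 nt, which is 24.7% of Ccdc85b and 57.2% of Fosl1, and none of these bases is in the coding sequence of Ccdc85b. Since the cDNA kit does not mark strand, reads in the shared stretch cannot be told apart, and the level of Ccdc85b is uncertain to that extent. Fosl1 was 4.12, 8.33, 14.58 and 8.37 RPKM in WT and 15.38, 23.34, 10.77 and 8.81 RPKM in Wfs1HZ islets. In Wfs1KO islets it was 25.44, 27.17, 23.26 and 13.26 RPKM, so that replicates 1 to 3 were above all WT animals and replicate 4 was not, as for Ccdc85b. The log2 difference of Fosl1 between Wfs1KO and WT was 1.40 (SE 0.38, unadjusted p = 0.00475, adjusted p = 0.835 by limma). Within genotypes the genes gave r = 0.83 (n = 12), over libraries and reads that they share, and r = 0.71 without replicate 4 of Wfs1KO and replicate 2 of Wfs1HZ (n = 10).

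**Figure D4:**
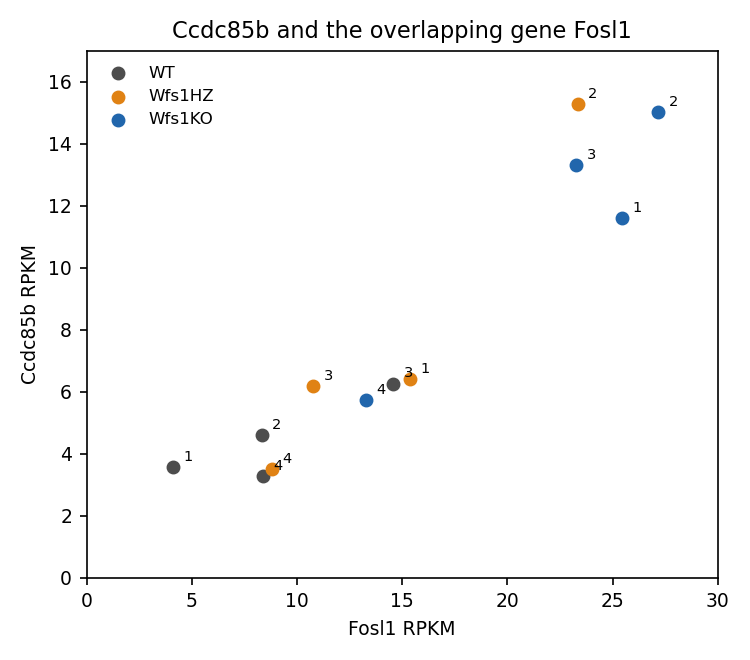
RPKM of Ccdc85b against RPKM of Fosl1, the gene that overlaps it on the opposite strand, one point per animal with its replicate number. Replicates 1 to 3 of Wfs1KO and replicate 2 of Wfs1HZ lie apart from the other animals, above 11 RPKM of Ccdc85b and above 23 RPKM of Fosl1.

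None of the 8 nearest genes on either side passed an unadjusted p of 0.05 between Wfs1KO and WT. Around Sprr1a, the level of Sprr3 was at most 3.33 RPKM and that of Sprr4 at most 5.88 RPKM in any library, both highest in replicate 2 of Wfs1HZ. The log2 differences between Wfs1KO and WT by limma were 0.85 (SE 0.72, unadjusted p = 0.268) for Sprr3 and 1.27 (SE 1.24, unadjusted p = 0.332) for Sprr4. Beside Glipr2, Reck gave -0.36 (SE 0.33, unadjusted p = 0.299) and Ccin 1.04 (SE 0.63, unadjusted p = 0.134). Beside Prss23, Fzd4 gave 0.59 (SE 0.32, unadjusted p = 0.0936) and Me3 0.40 (SE 0.48, unadjusted p = 0.42). Beside Ccdc85b, AI837181 gave -0.06 (SE 0.18, unadjusted p = 0.729) and Fibp -0.69 (SE 0.36, unadjusted p = 0.0896).

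Relatives and partners of the 4 genes were examined in 6 lists with 101 genes, of which 95 were tested. None passed an FDR of 0.05 in any comparison by limma. At an unadjusted p of 0.05, 4 of the 95 genes (4.21%) passed between Wfs1KO and WT, 3 of them higher and 1 lower in Wfs1KO, against 5.64% of all transcripts. Between Wfs1KO and Wfs1HZ 2 genes (2.11%) passed, both lower in Wfs1KO, against 2.45% of all transcripts. Between Wfs1HZ and WT 2 genes (2.11%) passed, both higher in Wfs1HZ, against 2.35% of all transcripts. The 3 genes higher in Wfs1KO than in WT were Crispld2, Klf6 and Fosl1, and the gene lower in Wfs1KO was Prss53. Without replicate 4 of Wfs1KO the count between Wfs1KO and WT was 12 (12.6%, against 8.62% of all transcripts), and without replicate 2 of WT it was 7 (7.37%, against 6.37%).

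Of the 13 genes of the CAP superfamily, to which Glipr2 belongs, Crispld2, a secreted protein, was the only one at an unadjusted p under 0.05. It was 1.80, 2.38, 3.78 and 2.92 RPKM in WT and 5.45, 7.52, 6.95 and 4.22 RPKM in Wfs1KO islets, with no overlap between these groups. This held for 1 of the 95 listed genes, against 1.75% of all transcripts. In Wfs1HZ islets Crispld2 was 9.85, 18.98, 4.10 and 1.38 RPKM, which spans both groups. The log2 difference between Wfs1KO and WT was 1.14 (SE 0.30, unadjusted p = 0.00413, adjusted p = 0.835 by limma). Between Wfs1KO and Wfs1HZ it was 0.03 (SE 0.67). Glipr1, its closest relative in the list, was 1.87 to 10.12 RPKM in WT and 4.2 to 5.39 RPKM in Wfs1KO islets (log2 difference -0.35, SE 0.49). The median log2 difference of the list was -0.20, and that of all transcripts 0.07. None of the 8 tested genes of the Beclin 1 complex passed an unadjusted p of 0.05 in any comparison, and their median was -0.11. Becn1 itself was 18.17 to 34.45 RPKM in WT and 14.90 to 32.31 RPKM in Wfs1KO islets.

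Of the 23 serine proteases of the trypsin fold, Prss53 was the only one at an unadjusted p under 0.05 and it was lower in Wfs1KO. Prss53 was 57.89, 19.77, 24.54 and 62.23 RPKM in WT, 35.96, 10.03, 67.33 and 56.29 RPKM in Wfs1HZ and 23.16, 16.30, 11.46 and 6.80 RPKM in Wfs1KO islets. The ranges overlapped in each comparison. The log2 difference was -1.47 (SE 0.47, unadjusted p = 0.0127, adjusted p = 0.835 by limma) against WT and -1.38 (SE 0.58, unadjusted p = 0.0379, adjusted p = 1) against Wfs1HZ. Prss35, the closest relative of Prss23, was at most 2.15 RPKM in any animal (log2 difference between Wfs1KO and WT 1.45, SE 0.78, unadjusted p = 0.0969). The median of the list was 0.28.

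The other small proline-rich and cornified envelope genes were near the limit of detection, unlike Sprr1a. None of the 20 genes tested passed an unadjusted p of 0.05, and their median log2 difference between Wfs1KO and WT was 0.08. Sprr1b, the closest relative, was at 0 in 9 of 12 libraries and at most 0.83 RPKM. Ppl, which codes for periplakin, a cytolinker also present in simple epithelia, was the one gene of the list above 4 RPKM in every library, at 5.85 to 10.50 RPKM in WT and 5.48 to 10.20 RPKM in Wfs1KO islets.

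Genes that are induced with Sprr1a in injured nerve and heart, 17 in number, had a median log2 difference of 0.25. Fosl1, described above, and Klf6, a zinc finger transcription factor, passed an unadjusted p of 0.05. Klf6 was 29.59, 50.19, 46.38 and 32.85 RPKM in WT and 54.23, 49.85, 60.55 and 55.34 RPKM in Wfs1KO islets, a log2 difference of 0.50 (SE 0.20, unadjusted p = 0.0334, adjusted p = 0.844 by limma). Unlike the 4 genes, it was not lowest in replicate 4 of Wfs1KO. Atf3, the stress-induced transcription factor that marks injured neurons, was 24.97 to 50.66 RPKM in WT and 26.24 to 46.68 RPKM in Wfs1KO islets (log2 difference -0.05, SE 0.26). Jun, another AP-1 subunit, was higher in Wfs1HZ than in WT islets by 0.78 on the log2 scale (SE 0.33, unadjusted p = 0.0395, adjusted p = 1 by limma). Hspb1, a small heat shock protein, was higher in Wfs1HZ than in WT by 1.21 (SE 0.46, unadjusted p = 0.0265, adjusted p = 1 by limma), and Wfs1KO was lower than Wfs1HZ (log2 difference -0.96, SE 0.33, unadjusted p = 0.015, adjusted p = 1).

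None of the 14 tested genes of the Ccdc85 family, the delta-catenins and the TCF factors passed an unadjusted p of 0.05 in any comparison, and the median log2 difference between Wfs1KO and WT was 0.30. Ccdc85a was at most 1.71 RPKM (log2 difference 1.01, SE 0.55, unadjusted p = 0.1005 by limma) and Ccdc85c at most 1.37 RPKM (log2 difference 0.75, SE 0.54, unadjusted p = 0.193). Both relatives were below Ccdc85b in every animal. Axin2, a target of beta-catenin and TCF factors, was 1.76 to 3.28 RPKM in WT and 1.74 to 4.75 RPKM in Wfs1KO islets, and Ctnnb1, which codes for beta-catenin, was 132.67 to 289.97 RPKM and 199.45 to 277.73 RPKM.

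**Figure D5:**
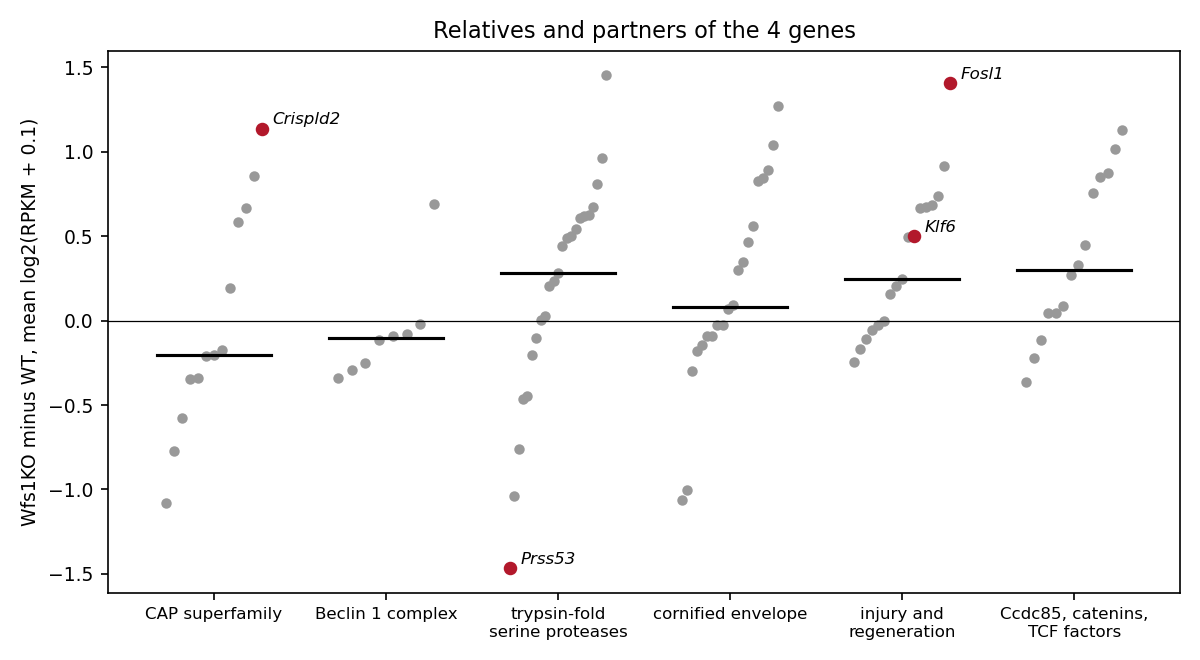
Difference in mean log2(RPKM + 0.1) between Wfs1KO and WT islets for the 95 tested relatives and partners in 6 lists, one point per gene, with a line at the median of each list. The 4 red points have an unadjusted p under 0.05 by limma (Crispld2, Klf6 and Fosl1 higher, Prss53 lower); the list medians run from -0.20 to 0.30.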

How the data were processed

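Total RNA (10 ng) of each animal's islets was turned into cDNA with the Ovation RNA-Seq System V2, and SOLiD paired reads (75 bp forward, 35 bp reverse) were mapped by the authors to mm10 with LifeScope. Values deposited by the authors are RPKM per transcript and animal; the annotation, the counting tool and the RPKM tool are not given in the sources used here. RPKM are not counts, so no count model was used. Each pair of genotypes was fitted on log2(RPKM + 0.1) with limma (version 3.58.1, R 4.3.3), with a variance trend and p-values were adjusted by Benjamini-Hochberg over the 21701 transcripts averaging 0.1 RPKM or more. Correlations used exact permutations within genotypes (13824). The procedures were tested on simulated data.

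Depth was estimated from short RNA genes under 200 nt, whose low values are multiples of 1 read, and covers counting error only. Approximate reads use GENCODE M21 lengths. Of the 24078 entries, 58 share a name with another; all were kept.

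The 4 genes and the lists were chosen with earlier results of these data known. Named are the 4 genes, Wfs1, neighbouring and overlapping genes, the closest relatives, list genes with an unadjusted p under 0.05, and the 3 transcripts most like each gene; Atf3, Becn1, Ppl, Axin2 and Ctnnb1 were named after their values were seen. Alternatives were other pseudocounts (1, 0.01), filters, scalings and variance models, sample weights, a replicate block, each animal left out, and, added after the data were seen, values relative to ductal markers, marker sums without their leading genes, and likeness without the 2 libraries that stood apart. Protein sequences were not used here. Other steps ran in Python 3.11.15 (scipy 1.17.1, pandas 2.3.3, numpy 2.4.6, matplotlib 3.10.9).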

Additional observations from a re-analysis of the deposited data

Results flagged for a closer look

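In 45 groups of 4 animals, covering the levels of the genes and the marker sums, the highest or lowest value was compared with the spread of its group by Dixon's test at the 95% level, and 4 stood apart; chance marks about 1 in 20 groups. Prss23 in replicate 4 of Wfs1KO was the lowest of its group at 6.81 RPKM, the others being 16.18 to 17.76 RPKM. Sprr1a in replicate 4 of WT was the highest of its group at 65.82 RPKM, the others being 34.70 to 39.12 RPKM. The summed alpha cell markers of replicate 4 of Wfs1KO were 217179 RPKM, the others being 50081 to 76663 RPKM. The summed fibroblast and stellate markers of replicate 2 of Wfs1HZ were 425 RPKM, the others being 14.1 to 57.8 RPKM. The causes were not tested.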

How the results depend on the processing

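The Wfs1KO minus WT direction of the 4 genes was fixed by their selection. In the comparisons with Wfs1HZ the direction was the same in each of the 20 alternatives run, except for Sprr1a between Wfs1HZ and WT (-0.33 to 0.39). Transcripts at FDR under 0.05 between Wfs1KO and WT numbered 3, and 0 with a pseudocount of 1, 5 with quantile normalization, 1 with all 12 samples in a single fit, 0 with the replicate block, and 0 to 1 with an animal left out (1 without replicate 1 of Wfs1KO, 0 without any other). Between Wfs1KO and Wfs1HZ they numbered 0, and 1 with quantile normalization, 1 with a robust variance and 5 with sample weights; between Wfs1HZ and WT 0, and 1 with no filter and 2 without a variance trend. With an animal left out both stayed at 0. Listed genes at an unadjusted p under 0.05 between Wfs1KO and WT numbered 4 (4.21%, against 5.64% of all transcripts). The count was 7 with no filter (7.29%, against 5.58%) and 11 with sample weights (11.6%, against 9.52%). With an animal left out it was 3 to 12. It was 12 without replicate 4 of Wfs1KO (12.6%, against 8.62%) and 7 without replicate 2 of WT (7.37%, against 6.37%). Between Wfs1KO and Wfs1HZ listed genes numbered 2 (2.11%, against 2.45% of all transcripts). The count was 1 with no filter (1.04%, against 2.9%) and 1 with median-of-ratios scaling (1.05%, against 3.66%). It was 5 with quantile normalization (5.26%, against 4.08%) and 9 with sample weights (9.47%, against 10.3%). With an animal left out it was 1 to 8. It was 8 without replicate 2 of Wfs1HZ (8.42%, against 6.03%) and 4 without replicate 4 of Wfs1KO (4.21%, against 3.6%). It was 1 without replicate 3 of Wfs1HZ (1.05%, against 2.53%) or replicate 2 of Wfs1KO (1.05%, against 1.6%). Between Wfs1HZ and WT listed genes numbered 2 (2.11%, against 2.35% of all transcripts). The count was 4 with quantile normalization (4.21%, against 4.4%), 5 with sample weights (5.26%, against 7.09%) and 4 with the replicate block (4.21%, against 3.94%). With an animal left out it was 1 to 7. It was 7 without replicate 4 of Wfs1HZ (7.37%, against 5.01%) and 5 without replicate 3 of WT (5.26%, against 2.19%). It was 1 without replicate 2 of WT (1.05%, against 2.33%) or replicate 3 of Wfs1HZ (1.05%, against 2.83%). The causes were not tested.

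The correlation of Glipr2 and Prss23 (0.74) passed the adjusted threshold with median-of-ratios scaling (0.78), quantile normalization (0.76) and without replicate 2 of Wfs1HZ (0.79), and that of Prss23 and Sprr1a (0.68) with the same settings (0.85, 0.82 and 0.80). With an animal left out r ranged from 0.58 to 0.79 for Glipr2 and Prss23, from 0.27 to 0.85 for Prss23 and Sprr1a, from -0.23 to 0.63 for Glipr2 and Sprr1a and from -0.70 to 0.65 for Sprr1a and Ccdc85b. It was below 0 for Sprr1a and Ccdc85b without replicate 2 (-0.06) or 4 (-0.70) of Wfs1KO, and for Glipr2 and Sprr1a without replicate 4 (-0.23).

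Animals that share a replicate number are different animals, and their deviations correlated at -0.17 to 0.23. Such values cannot show whether a number stands for a shared litter, day or batch. The sample labels state no pairing, and the main comparisons treated the animals as unpaired. Glipr2 rested on about 12.4 reads in 1 WT animal, and genes listed near 0, such as most small proline-rich genes, give no usable difference.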

Other observations

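Relative to the summed ductal markers of the same library, Sprr1a no longer overlapped between Wfs1KO and the other genotypes; this measure was chosen after the data were seen and has no test. Per 100 RPKM of ductal markers, Sprr1a was 4.69, 4.82, 2.55 and 6.52 RPKM in WT, 4.35, 2.94, 7.93 and 6.22 RPKM in Wfs1HZ and 16.04, 19.1, 23.1 and 16.5 RPKM in Wfs1KO islets. Replicate 4 of Wfs1KO, with the lowest Sprr1a level of its group, lay with the other Wfs1KO animals on this scale. The sum is mostly Spp1 (83.5%). Relative to the 7 other ductal markers, replicate 4 of Wfs1KO was at 32.2 RPKM per 100 RPKM, within the range of WT (20.8 to 42.8), while the other Wfs1KO animals were at 120.7 to 261.7. Of the 10 marker lists, 4 gave a Sprr1a ratio with all Wfs1KO above all WT animals, 4 a Glipr2 ratio, 3 a Prss23 ratio and 1 a Ccdc85b ratio. For Sprr1a these were the beta cell, acinar, ductal and leukocyte and macrophage lists, the same 4 in which replicate 4 of Wfs1KO was lowest. Division by a low sum raises the ratio of this animal, and the contrast is the one used in the selection, so nothing is read from this separation. The share of all transcripts that separate in this way is not given. Glipr2 and Prss23 were apart between Wfs1KO and WT before any division, and division by the remaining lists removed that separation. The log2 difference between Wfs1KO and WT relative to the ductal markers was 2.07 for Sprr1a, 2.85 for Glipr2, 1.48 for Prss23 and 1.30 for Ccdc85b. Between Wfs1KO and Wfs1HZ it was 1.88, 0.97, 0.41 and 0.35 in the same order of genes, and between Wfs1HZ and WT 0.19, 1.88, 1.07 and 0.95.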
